A study of Mus musculus with 15 samples.

Results

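The genes described here encode the TGF-beta, BMP and activin signalling system in mouse lung: secreted ligands, their receptors, extracellular antagonists, latent TGF-beta binding proteins, SMAD proteins with their inhibitors, and the ID proteins. The rule for the set was pathway membership, though the list was drawn up when earlier results of these data were known. Of 48 listed genes, 47 had a probe set annotated with their symbol alone, among 19934 such genes on the array, and the probe set with the highest mean stood for each gene. The annotation used here does not name the remaining gene, Gdf15. Its probe set was identified through the study's own list of genes regulated by ventilation with H2S. It was therefore known only because it had been selected on these same mice, and it is kept out of all counts over the 47 genes.

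Ligands of this family bind pairs of type I and type II receptor kinases. TGF-beta and activin receptors phosphorylate SMAD2 and SMAD3, whereas BMP receptors phosphorylate SMAD1, SMAD5 and SMAD9, and both branches enter the nucleus with SMAD4. The system is restrained outside the cell by binding proteins such as follistatin, noggin, chordin and gremlin, and inside it by SMAD6, SMAD7 and the ubiquitin ligases SMURF1 and SMURF2. In the lung, TGF-beta is known for its part in matrix deposition and barrier leak, and BMP signalling for its part in the endothelium of pulmonary vessels.

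Total RNA from 15 male C57BL/6N mice, taken from the inferior right lung lobe, was hybridised to Affymetrix whole-transcript arrays, 1 array per mouse. The groups were 5 mice ventilated for 6 h with synthetic air containing 80 ppm H2S (hydrogen sulfide), 5 mice ventilated for 6 h with synthetic air alone, and 5 control mice that breathed synthetic air spontaneously for 6 h. All mice, controls included, were anesthetized with ketamine and acepromazine and carried an arterial line and a tracheal tube, and the ventilator was set to 12 ml/kg tidal volume with 2 cmH2O PEEP, which is a model of ventilator-induced lung injury. The control group therefore differed from the air-ventilated group in the ventilator and from the H2S-ventilated group in both ventilator and gas, bronchoalveolar lavage fluid was collected at the end of the experiment, and no group with spontaneous breathing of H2S was used here.

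Values are array intensities on a linear scale. In what follows, with H2S and with air name the ventilated groups, while controls breathed synthetic air without the ventilator. Differences are on the log2 scale, from limma fitted to all 15 arrays, with p-values adjusted by Benjamini-Hochberg over all 28361 probe sets, and a gene is called higher or lower where its adjusted p was under 0.05. Array medians were 179.8 to 185 with H2S ventilation, 179 to 187 with air ventilation and 184 to 187 in controls, and intensities of different probe sets are not comparable with each other. The number of arrays limits the precision. Markers of lung epithelium were present in all mice. The summed intensity of 8 alveolar type II markers was 61481 to 64510.2 with H2S, 61325 to 64380.2 with air and 59939 to 63233 in controls, with 1 of the 8 higher and 1 lower with H2S and none changed with air. Of all probe sets, 3.92% were higher and 3.93% lower with H2S than in controls, and 1.56% and 1.89% with air. Markers of other cell types did move. All 9 measured B cell markers were lower in both ventilated groups, with sums of 1314 to 2588 with H2S and 1398 to 3349.7 with air, against 3573 to 6163 in controls. The sums of 9 neutrophil markers were 10828 to 20582 with H2S and 11741 to 17501 with air, against 6229 to 12131 in controls, and 4 of the 9 passed the test as higher with H2S and 3 with air. Of 7 alveolar macrophage markers, 3 were higher with H2S and 1 with air, with sums of 12456 to 13822 with H2S and 11573 to 12499 with air, against 10665 to 12725 in controls. The part of all these cells in the differences of the pathway genes was not tested. In whole-lobe RNA, fewer cells of a type and less RNA per cell cannot be told apart.

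Ventilation with H2S changed 7 of the 47 genes relative to control, 5 higher and 2 lower. The higher ones were Fst (follistatin), Tgfbr3 (betaglycan), Smurf1, Bmp4 and Smad1, and the lower ones were Bmp6 and Bmper. Among all probe sets, 3.92% were higher and 3.93% lower in this comparison, so the 5 of 47 and 2 of 47 have to be read against that general level of change. With 1 probe set per gene, as for the 47, 933 of 19934 genes were higher and 811 lower in it. The median log2 difference of the 47 genes was 0.00, as was that of all probe sets. Ventilation with air changed 3 of the 47 genes, with Tgfbr3 and Bmp4 higher and Bmper lower, where 1.56% of all probe sets were higher and 1.89% lower, and the median was -0.02 against 0.01 over all probe sets. With 1 probe set per gene, 388 of 19934 genes were higher and 388 lower with air. Gdf15 was higher in both comparisons and was also higher with H2S than with air. Both comparisons rest on the same 5 control mice, so the genes called in both are not independent observations. In CyberT, the study's own kind of test, 7 of the 47 were higher and 1 lower with H2S. With air, CyberT gave 5 higher and 3 lower. Among all 28361 probe sets it gave 1244 higher and 1372 lower with H2S, and 667 and 950 with air.

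At the study's thresholds (a p up to 0.005, an adjusted p up to 0.1 and a fold of 1.7 or more), 1 of the 47 genes passed with H2S against control, where 1.45% of all probe sets did, and that gene was Fst. Fst also stands in the study's list of genes regulated with H2S, chosen on these mice, so the count is not independent evidence of its direction. None of the 47 passed with air against control (0.959% of all probe sets) or with H2S against air (0.0599%). Gdf15, again chosen on these mice, passed with H2S against control and with H2S against air.

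**Figure D1:**
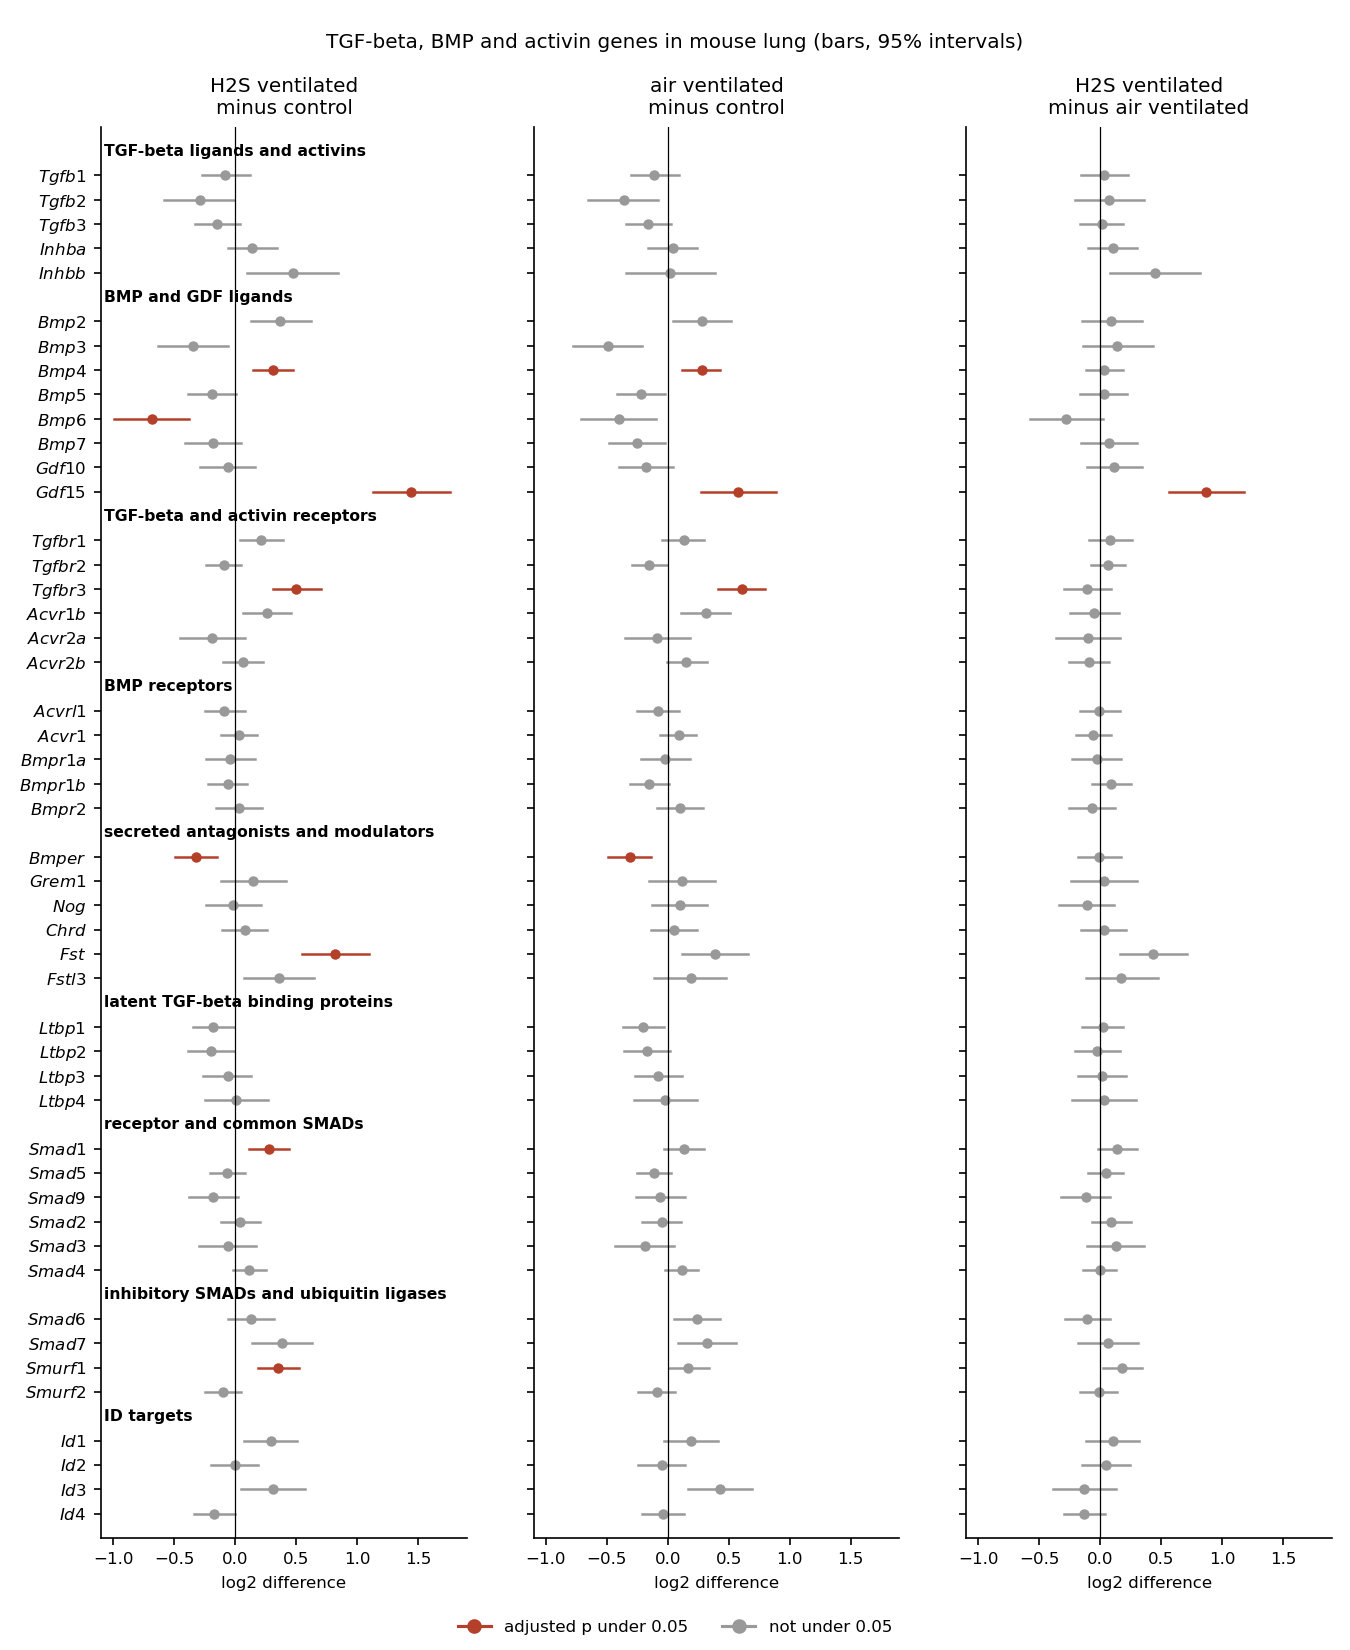
Log2 differences of the 48 genes by role, for H2S ventilation minus control, air ventilation minus control and H2S minus air ventilation. Points are limma estimates and bars their 95% confidence intervals (5 mice per group), red where the adjusted p was under 0.05. Gdf15 and Fst lie farthest to the right with H2S, Bmp6 farthest to the left, and the BMP receptors stay close to 0. The probe set of Gdf15 was known only through a list selected on these mice.

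Among the ligands, Gdf15 had the largest difference of the 48 genes with H2S. Its probe set was known only through a list selected on these mice, so its rank and p-values with H2S are not independent evidence. GDF15 is a stress-induced cytokine, distant from the other family members, that signals through the receptor GFRAL in the hindbrain. Its intensity was 236, 339, 192, 239.6 and 285 in the H2S-ventilated mice, 141, 111, 149.6, 149 and 149 in the air-ventilated mice, and 71.6, 92.4, 91.8, 106 and 109.6 in controls. Every H2S-ventilated mouse was above every air-ventilated mouse, and every air-ventilated mouse above every control. The means were 258 ± 55.8 with H2S, 140.0 ± 16.4 with air and 94.2 ± 14.9 in controls (SD, n = 5 each). All air and control values lay under the array medians of those groups (179 to 187 and 184 to 187). In limma the difference was 1.44 for H2S minus control (SE 0.15, adjusted p = 6.67e-05), a fold of 2.72, and 0.58 for air minus control (SE 0.15, adjusted p = 0.0388), a fold of 1.49. The H2S-ventilated mice exceeded the air-ventilated mice by 0.87 (SE 0.15, 95% interval 0.56 to 1.18, adjusted p = 0.0317), a fold of 1.82.

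The call of Gdf15 between H2S and air kept its direction without each mouse, from 0.76 to 0.97, but its adjusted p then ran from 0.0101 to 0.101. It stayed under 0.05 only without the H2S-ventilated mouse 12 or 20 or the control mouse 1, 21 or 25, and was over 0.05 without any of the other 10 mice and in a fit of only the groups compared (0.0916). Mice are named here by the second number of their label. In air minus control, the adjusted p of Gdf15 ran from 0.0221 to 0.0985 without each mouse and was over 0.05 without the H2S-ventilated mouse 4, the air-ventilated mouse 2, 10, 22 or 26, or the control mouse 1, 5 or 9. In H2S minus control it remained between 4.23e-05 and 0.000425.

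Of the 7 BMP and GDF ligands other than Gdf15, 1 was higher and 1 lower with H2S, and 1 was higher with air. Bmp4 encodes a ligand needed for lung branching in the embryo and made by vascular and airway cells of the adult. It measured 2532, 2589, 2340.2, 2206 and 2674 with H2S, 2333, 2596, 2349, 2175 and 2626 with air, and 2055, 1914, 2019, 2008 and 1935 in controls. All 10 ventilated mice were above all 5 controls, and the H2S-ventilated and air-ventilated mice overlapped. The difference was 0.31 for H2S minus control (SE 0.07, limma adjusted p = 0.0151), 0.28 for air minus control (SE 0.07, adjusted p = 0.0472) and 0.03 for H2S minus air (95% interval -0.12 to 0.19). The call with air sat at the threshold: without each mouse the adjusted p ran from 0.0261 to 0.126, and it stayed under 0.05 only without the H2S-ventilated mouse 8 or 20 or the air-ventilated mouse 22. In a fit of only the groups compared it was 0.0704.

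Bmp6 went the other way. BMP6 is best known as the signal from liver endothelium that induces hepcidin, the hormone of iron balance. Its intensity was 1262, 1434, 1237, 1953 and 1449 with H2S, 1821, 1236, 1743, 2155 and 1971 with air, and 2558, 2217, 2263, 2104 and 2509 in controls. All 5 H2S-ventilated mice were below all controls, while the air-ventilated mouse 22 lay within the control range. The mean was 1467 ± 288 with H2S, 1785 ± 345 with air and 2330.2 ± 195 in controls (SD, n = 5 each). The difference was -0.68 for H2S minus control (SE 0.14, limma adjusted p = 0.00709), a fold of 0.622, and -0.40 for air minus control (SE 0.14, adjusted p = 0.163), which did not pass. The H2S-ventilated and air-ventilated mice differed by -0.28 (95% interval -0.58 to 0.02), and that comparison did not pass either. In CyberT, the study's own kind of test, Bmp6 was also lower with air than in controls (adjusted p = 0.0173).

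The promoters of these 3 ligands are shown because they include the genes with the highest and the lowest difference of the set and because each has an E-box in an annotated promoter window. This choice was made with their values known, and Gdf15 was itself identified through a list selected on these mice. The sequences are the 250 bases before the annotated start from RefSeq (GRCm38.p6), 5′ to 3′ on the strand of the gene, with the E-box CACGTG, a motif bound by basic helix-loop-helix proteins of the clock, MYC and USF families, in capitals where present. They lie at chr14:46390670-46390919 on the minus strand for Bmp4, chr13:38345466-38345715 on the plus strand for Bmp6 and chr8:70632457-70632706 on the minus strand for Gdf15.
Bmp4: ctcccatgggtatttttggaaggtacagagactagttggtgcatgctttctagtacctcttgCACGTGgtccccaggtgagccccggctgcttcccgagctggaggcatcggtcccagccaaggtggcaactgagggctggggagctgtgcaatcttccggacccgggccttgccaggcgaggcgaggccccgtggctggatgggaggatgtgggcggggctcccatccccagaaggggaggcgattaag
Bmp6: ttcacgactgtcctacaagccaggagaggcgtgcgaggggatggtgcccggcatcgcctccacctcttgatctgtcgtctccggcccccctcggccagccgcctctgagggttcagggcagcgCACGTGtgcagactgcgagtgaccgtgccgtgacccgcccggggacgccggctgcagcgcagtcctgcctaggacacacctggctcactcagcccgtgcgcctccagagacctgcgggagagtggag
Gdf15: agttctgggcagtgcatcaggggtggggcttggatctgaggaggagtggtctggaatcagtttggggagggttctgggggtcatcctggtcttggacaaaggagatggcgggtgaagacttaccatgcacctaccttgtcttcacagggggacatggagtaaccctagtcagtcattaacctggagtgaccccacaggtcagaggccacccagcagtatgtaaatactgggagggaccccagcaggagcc

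The E-box begins 188 bases before the start of Bmp4 and 127 bases before that of Bmp6. Gdf15 has 2 annotated starts, and its E-box lies 83 bases before the inner start, downstream of the outer start whose window is printed. Of the 48 genes, 36 had a promoter window in the table used, some of them several, 45 in all. Of the 8 changed genes, 6 had a window. Fst and Tgfbr3 had none, so no motif could be searched in them. An E-box lay before the start in 5 of these 45 windows (11.1%), against 6.02% of all 32851 windows. Those 5 belonged to Acvr1b, Bmp4, Bmp6, Gdf15 and Tgfb2. Of these, Bmp4 and Gdf15 were higher and Bmp6 lower with H2S. A match describes the letters only and says nothing of a factor.

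On either strand of the same stretch, 7 other motifs were searched. The SMAD palindrome GTCTAGAC was in none of the 36 genes and in 0.167% of windows. The GC-rich SMAD site GGCGCC was in 12 of the 45 windows (26.7%, against 9.59% of all windows), which belonged to 11 genes, none of them changed in any comparison: Bmpr1a, Bmpr2, Chrd, Grem1, Id2, Id4, Ltbp4, Smad5, Smad9, Smurf2 and Tgfbr1. GC content was not matched in that comparison. The AP-1 site TGANTCA was in none of them and in 6.75% of windows. The cAMP response element TGACGTCA, the CCAAT/enhancer-ATF site TGATGNAA and the paired heat shock half-sites GAANNTTC were in Ltbp1, in Bmp5, and in Inhbb and Ltbp4, and in 1.55%, 3.45% and 6.69% of windows. The antioxidant response core TGACNNNGC was in 5 of the 45 windows (11.1%), of which only that of Bmp6 belonged to a changed gene, and in 10.2% of all windows.

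The other 5 BMP and GDF ligands did not pass in limma in either comparison with control. In CyberT, Bmp3 was lower with air (adjusted p = 0.00139) and Bmp2 higher with H2S (adjusted p = 0.0316). Bmp2 measured 187 to 247 with H2S (median 204), 166 to 235 with air (median 217) and 146 to 189 in controls (median 165), and its difference for H2S minus control was 0.37 (SE 0.11, adjusted p = 0.0601). Bmp3, which encodes a ligand that counters other BMPs in bone, measured 280.5 to 383 with air and 416 to 488 in controls without overlap, with a difference for air minus control of -0.49 (SE 0.13, adjusted p = 0.0572). With H2S, Bmp3 was -0.35 relative to control (adjusted p = 0.137), and the H2S-ventilated mice 20 and 28 were the highest of their group at 500.1 and 404. Bmp5, Bmp7 and Gdf10 had differences between -0.25 and -0.06 in these comparisons.

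None of the 5 TGF-beta ligands and activin subunits passed in any comparison in limma. In CyberT, Tgfb2 was lower with air (adjusted p = 0.0472) and Inhbb higher with H2S (adjusted p = 0.0256). Tgfb2 differed by -0.36 for air minus control (SE 0.13, limma adjusted p = 0.189) and by -0.29 for H2S minus control (limma adjusted p = 0.229). Tgfb3 differed by -0.16 with air and by -0.15 with H2S. Tgfb1, the main TGF-beta of leukocytes and endothelium, differed by -0.08 for H2S minus control (95% interval -0.27 to 0.12) and by -0.11 for air minus control (-0.30 to 0.09). Inhba, which encodes the subunit of activin A, differed by 0.14 with H2S (-0.06 to 0.34) and by 0.04 with air (-0.16 to 0.24). Inhbb, the subunit of activin B, was 185 to 346 with H2S (median 278), 151 to 264 with air (median 169) and 154 to 195 in controls (median 190.1). Its H2S minus air difference of 0.45 (SE 0.17, unadjusted p = 0.0199, adjusted p = 0.687) was the largest of the 47 genes in that comparison and did not pass.

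Among the TGF-beta and activin receptors, 1 of 6 was higher in each ventilated group, and it was Tgfbr3 both times. Tgfbr3 encodes betaglycan, a co-receptor that presents TGF-beta 2 to the kinase receptors and binds inhibin. It measured 1765, 1732, 1900.0, 1779 and 1813 with H2S, 1901, 1831, 2113, 1805 and 2053 with air, and 1446, 1095, 1078, 1467 and 1316 in controls. All 10 ventilated mice were above all controls, whose 2 highest were control mice 1 and 21. The difference was 0.50 for H2S minus control (SE 0.09, limma adjusted p = 0.00331) and 0.61 for air minus control (SE 0.09, adjusted p = 0.00267), the largest of the 47 genes with air. The H2S minus air difference was -0.11 (95% interval -0.30 to 0.09). Both calls of Tgfbr3 held without each mouse in turn, with adjusted p of 0.00158 to 0.0114.

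None of the kinase receptors passed. Tgfbr1 and Tgfbr2, the kinases that bind TGF-beta, differed by 0.21 (adjusted p = 0.14) and -0.09 (adjusted p = 0.5) with H2S, and by 0.13 and -0.15 with air. Acvr1b, the activin type I receptor ALK4, measured 725 to 841 with air and 556 to 710.0 in controls without overlap, with a difference of 0.31 (SE 0.09, adjusted p = 0.0904). None of the 5 BMP receptors passed, and all lay between -0.15 and 0.10 in both comparisons with control. Bmpr2, the receptor mutated in heritable pulmonary arterial hypertension, differed by 0.03 with H2S (95% interval -0.16 to 0.22) and by 0.10 with air (-0.09 to 0.29). Acvrl1, the endothelial receptor ALK1 of BMP9 and BMP10, differed by -0.09 with H2S (-0.25 to 0.08) and -0.08 with air (-0.25 to 0.09).

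The secreted antagonists held the largest difference of the 47 genes with H2S. Follistatin, the product of Fst, binds activin almost irreversibly and keeps it from its receptors. Fst measured 409, 344, 310.0, 369.8 and 515 with H2S, 247, 355, 317, 245 and 270.0 with air, and 214, 207, 212, 237 and 215 in controls. The H2S-ventilated and control mice did not overlap, nor did the air-ventilated and control mice, while the H2S-ventilated and air-ventilated mice did. The means were 389.6 ± 78.8 with H2S, 287 ± 47.8 with air and 217 ± 11.5 in controls (SD, n = 5 each). The difference was 0.82 for H2S minus control (SE 0.13, limma adjusted p = 0.00125), a fold of 1.77, and 0.39 for air minus control (SE 0.13, adjusted p = 0.128), which did not pass. For H2S minus air it was 0.43 (95% interval 0.16 to 0.71, unadjusted p = 0.0038, adjusted p = 0.419). In CyberT, Fst was also higher with air than in controls (adjusted p = 0.0335). Without the H2S-ventilated mouse 28, the highest, the H2S minus control difference was 0.72 and Fst no longer passed the fold of the study's thresholds, though its adjusted p stayed at or under 0.00505 without each mouse.

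Bmper encodes a BMP-binding protein of endothelium that can restrain or enhance BMP4, depending on its amount. It measured 307, 271, 296, 309 and 322 with H2S, 299.6, 257, 304, 313 and 339.6 with air, and 384, 362, 399, 337 and 395 in controls. All H2S-ventilated mice were below all controls, and the air-ventilated mouse 26 overlapped the control mouse 21. The difference was -0.32 for H2S minus control (SE 0.08, limma adjusted p = 0.0237), -0.31 for air minus control (SE 0.08, adjusted p = 0.0454) and -0.01 for H2S minus air (95% interval -0.18 to 0.17). Its call with air stayed under 0.05 only without the H2S-ventilated mouse 8, the air-ventilated mouse 26 or the control mouse 21, with adjusted p of 0.0321 to 0.123 over the 15 mice left out, and with H2S it went over 0.05 (to 0.0666 at most) without the H2S-ventilated mouse 8 or 12 or the control mouse 9 or 25. In the study's own kind of test, CyberT, Bmper had adjusted p of 0.0508 with H2S and 0.0505 with air, and in a limma fit of only the groups compared 0.0889 with air.

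Markers of endothelium moved beside Bmper and Bmp6. The summed intensity of 10 endothelial markers was 31976 to 35086 with H2S and 32012 to 35159 with air, against 35771 to 40110.4 in controls, without overlap. Of the 10, 3 were lower with H2S and 2 with air, led by Kdr, the VEGF receptor, at -0.83 (adjusted p = 0.000553) with H2S and -0.58 (adjusted p = 0.00952) with air, whereas Pecam1 and Cdh5 differed by -0.12 and -0.01 with H2S and -0.10 and -0.05 with air and did not pass. Of all probe sets, 3.93% were lower with H2S and 1.89% with air. The part of endothelial cells in the lower Bmp6 and Bmper was not tested.

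The other antagonists, Grem1, Nog and Chrd, differed by 0.15, -0.02 and 0.08 with H2S and by 0.12, 0.10 and 0.05 with air, and none passed. Fstl3, a second activin-binding protein, was 912 to 1521 with H2S, 908 to 1224 with air and 771 to 1026 in controls, with a difference of 0.36 for H2S minus control (SE 0.14, adjusted p = 0.136). The 4 latent TGF-beta binding proteins, which hold TGF-beta in the matrix or build elastic fibres, did not pass. Ltbp1 and Ltbp2 lay at -0.18 and -0.20 with H2S, and at -0.20 and -0.17 with air. Ltbp3 and Ltbp4 lay between -0.08 and 0.01.

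**Figure D2:**
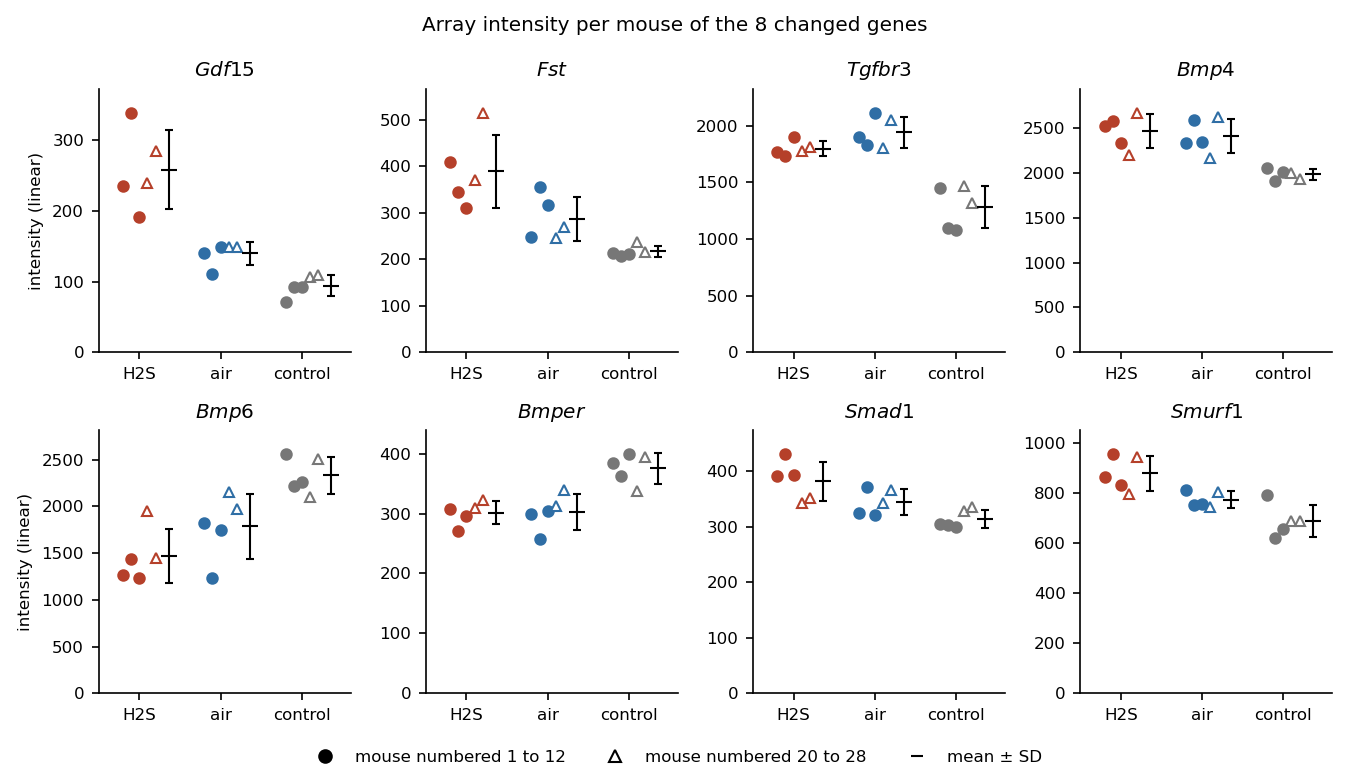
Array intensity (linear scale from 0) of the 8 genes that passed in at least 1 comparison, 1 point per mouse, for the H2S-ventilated, air-ventilated and control groups. Filled circles are mice numbered 1 to 12, open triangles mice numbered 20 to 28, and bars the mean ± SD of 5 mice. Tgfbr3 and Bmp4 stood above control in both ventilated groups, Bmper and Bmp6 stood below control with H2S, and Gdf15 separated all 3 groups.

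Inside the cell, 1 of the 6 receptor-activated and common SMADs passed. Smad1, activated by BMP receptors, measured 390.1, 430.2, 393, 342 and 351 with H2S, 324, 372, 321, 342 and 365 with air, and 304, 303, 299.7, 328 and 335 in controls. The H2S-ventilated mice were all above the controls, though the lowest of them, mouse 20, by little. The difference was 0.28 for H2S minus control (SE 0.08, limma adjusted p = 0.0377), 0.13 for air minus control (SE 0.08, adjusted p = 0.503) and 0.14 for H2S minus air (95% interval -0.02 to 0.30). The call was lost without the H2S-ventilated mouse 4, 8 or 12 or the control mouse 1, 5 or 9, with adjusted p of 0.0222 to 0.0915 over the 15 mice left out, and also in CyberT (0.119) and in a fit of only the groups compared (0.0766). Smad5 and Smad9, the other SMADs of the BMP branch, differed by -0.07 and -0.18 with H2S. Smad2 and Smad3 of the TGF-beta branch differed by 0.04 and -0.06, and the common Smad4 by 0.11 (95% interval -0.02 to 0.25).

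Of the 4 inhibitory SMADs and ubiquitin ligases, Smurf1 was higher with H2S. SMURF1 is a HECT ubiquitin ligase that marks BMP SMADs and, together with SMAD7, TGF-beta receptors for degradation. It measured 864, 954, 831, 794 and 943 with H2S, 813, 751, 756, 743 and 803 with air, and 789.6, 621, 654, 688 and 686 in controls. All H2S-ventilated mice were above all controls, the lowest of them (mouse 20) only just above the control mouse 1, and the air-ventilated mice overlapped both other groups. The difference was 0.35 for H2S minus control (SE 0.08, limma adjusted p = 0.00948), 0.17 for air minus control (SE 0.08, adjusted p = 0.315) and 0.18 for H2S minus air (95% interval 0.02 to 0.34, adjusted p = 0.792). The call with H2S held without each mouse, with adjusted p of 0.00444 to 0.0303. Smurf2, its close relative, differed by -0.10 with H2S and -0.09 with air.

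Smad7, the inhibitory SMAD that TGF-beta itself induces, missed the threshold with H2S by little in limma. In CyberT, Smad7 was higher with H2S and with air (adjusted p = 0.0174 and 0.0397). It measured 822 to 1152 with H2S (median 1042), 848 to 1192 with air (median 925) and 643 to 908 in controls (median 776), with a difference of 0.38 for H2S minus control (SE 0.11, adjusted p = 0.0504) and 0.32 for air minus control (SE 0.11, adjusted p = 0.169). Smad6, the inhibitor of BMP signals, differed by 0.13 with H2S and 0.24 with air and did not pass. None of the 4 ID genes passed in limma, while in CyberT Id3 was higher with air (adjusted p = 0.0036). Id1, a direct BMP target, measured 833 to 1182 with H2S, 753 to 988 with air and 706 to 806 in controls, with differences of 0.29 (adjusted p = 0.107) and 0.19 (adjusted p = 0.477). Id3 differed by 0.31 with H2S (adjusted p = 0.153) and 0.43 with air (adjusted p = 0.0671), while Id2 and Id4 lay between -0.17 and 0.00 in both.

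Set directly against air ventilation, H2S ventilation changed 0 of the 47 genes in limma, and 0 in CyberT. In limma, 0.0705% of all probe sets (20) were higher and 0.00705% (2) lower in this comparison, so few genes of any kind passed. At an unadjusted p under 0.05 there were 3 of the 47, beside 1612 of all 28361 probe sets. These 3 genes were Inhbb, Fst and Smurf1, each higher with H2S. The median difference was 0.03, against -0.01 over all probe sets, and the 47 differences ran from -0.28 (Bmp6) to 0.45 (Inhbb). Thus Fst, Bmp6, Smad1 and Smurf1 passed in limma against control with H2S and not with air. The difference between the gases passed for none of them. In CyberT, Fst and Bmp6 passed with air as well (adjusted p = 0.0335 and 0.0173), and Smad1 did not pass with H2S (0.119). The 95% intervals of H2S minus air spanned 0 for Bmp6 and Smad1 and did not for Fst and Smurf1.

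The label numbers of the mice fall into 2 sets, 1 to 12 (3 mice per group) and 20 to 28 (2 mice per group), which no source used here explains. Between the sets, across groups, 1775 probe sets differed at an adjusted p under 0.05 and 0 of the 48 genes did, the nearest being Bmp3 at 0.30 (adjusted p = 0.0501). Within the sets, the H2S minus control differences of Gdf15 were 1.56 in mice 1 to 12 and 1.28 in mice 20 to 28, and those of Fst were 0.74 and 0.95. The differences of Bmp4 were 0.32 and 0.30, and those of Smurf1 were 0.36 and 0.33. Smad1 had 0.42 in mice 1 to 12 and 0.06 in mice 20 to 28, and Bmp6 had -0.84 and -0.45. For Tgfbr3 they were 0.59 and 0.37, and for Bmper -0.39 and -0.21. With air, Tgfbr3 had 0.70 and 0.47 and Bmp4 0.28 in both. For Gdf15, the H2S minus air difference was 0.90 and 0.81, neither past the threshold within a set (adjusted p = 0.489 and 0.731). In the 6 mice numbered 20 to 28 alone, no gene of the 48 passed in any comparison.

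**Figure D3:**
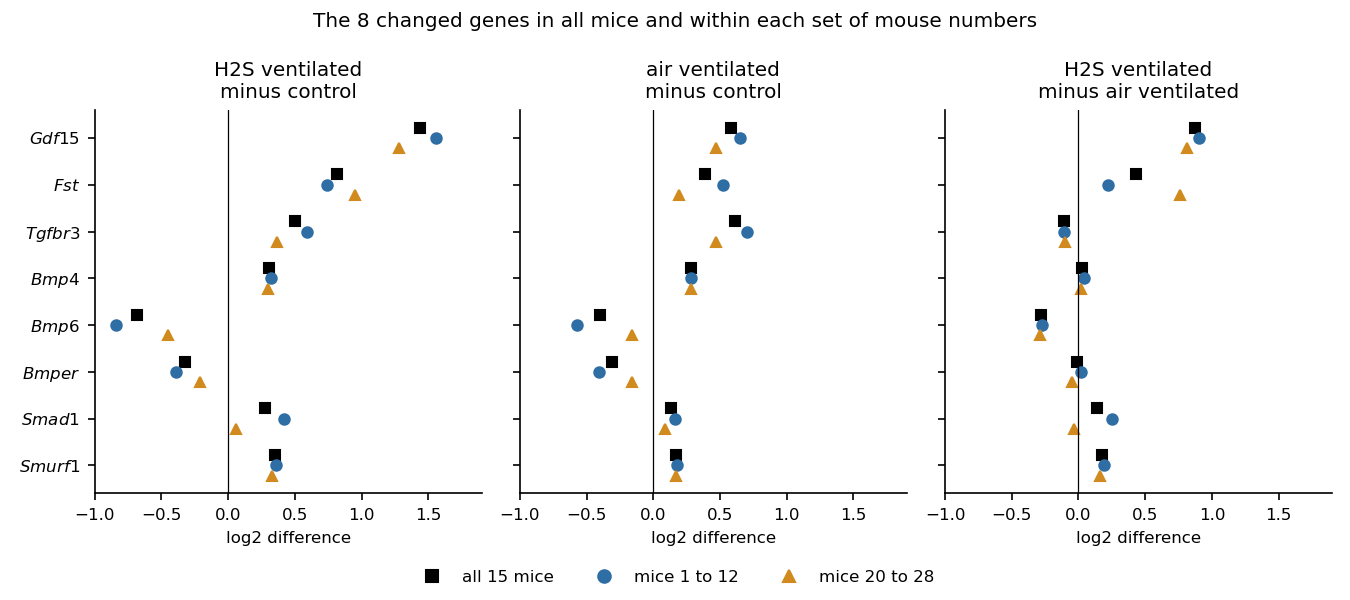
Log2 differences of the 8 genes in all 15 mice (squares), in the 9 mice numbered 1 to 12 (circles) and in the 6 mice numbered 20 to 28 (triangles), for H2S minus control, air minus control and H2S minus air. In both comparisons with control every gene kept its direction in each set. Smad1 with H2S lay near 0 in mice 20 to 28, at 0.06.

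Other genes of the pathway, 73 listed and 70 measured, were counted in the same way. With H2S, 4 were higher and 1 lower of 70, and with air 1 was higher and 1 lower, with medians of 0.03 and 0.00. Of all probe sets, 3.92% were higher and 3.93% lower with H2S, and 1.56% and 1.89% with air. Tgif1, a co-repressor that binds SMAD2 and SMAD3, differed by 0.45 with H2S (SE 0.08, adjusted p = 0.00206), and Skil, which encodes the SMAD co-repressor SnoN, by 0.35 (SE 0.08, adjusted p = 0.0191). Nedd4l, a HECT ubiquitin ligase of SMADs and of the epithelial sodium channel, differed by 0.32 with H2S (adjusted p = 0.0125) and by 0.31 with air (adjusted p = 0.0271). Furin, the protease that cleaves TGF-beta and BMP precursors, differed by 0.31 with H2S (adjusted p = 0.0165). The lower genes were Inha, the inhibin subunit, at -0.32 with H2S (adjusted p = 0.0332), and Tll1, a protease that cleaves chordin, at -0.36 with air (adjusted p = 0.0437). Between H2S and air, 0 of the 70 passed in limma and 0 in CyberT. At an unadjusted limma p under 0.05 there were 5, beside 1612 of all 28361 probe sets.

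Known target genes of the 2 branches were read in the same way. Of 18 measured TGF-beta targets, 5 were higher and 1 lower with H2S, and 2 were higher with air, with medians of -0.04 and -0.06. Of all probe sets, 3.92% were higher and 3.93% lower with H2S, and 1.56% and 1.89% with air. Lox, the collagen and elastin cross-linking enzyme, differed by 1.35 with H2S (SE 0.18, adjusted p = 0.000399) and by 1.27 with air (SE 0.18, adjusted p = 0.00183). Ccn2, the matricellular protein CTGF, differed by 0.60 with H2S (adjusted p = 0.00245) and by 0.57 with air (adjusted p = 0.00677). Bhlhe40, a transcriptional repressor that many other stimuli also induce, differed by 1.36 with H2S (SE 0.20, adjusted p = 0.000739). Ccn1 and Timp1 were higher with H2S by 0.81 and 0.70 (adjusted p = 0.0255 and 0.0107). Acta2, the smooth muscle actin that TGF-beta induces in myofibroblasts, was lower with H2S, at -0.35 (adjusted p = 0.0284). Lox, Bhlhe40 and Ccn2 stand in the study's lists chosen on these mice, so their part of the count is not independent evidence, and each of these genes also responds to signals outside the pathway.

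Of 8 markers of smooth muscle and pericytes, 2 were lower with H2S, Acta2 included, beside 3.93% of all probe sets. The summed intensity of the 8 was 9745 to 11156 with H2S, 9803 to 12534 with air and 10496 to 14906 in controls, with overlap. Acta2 is itself a marker of these cells, and the part of these cells in its difference was not tested. Of 11 measured BMP targets, Hey2 was higher with H2S at 0.40 (adjusted p = 0.0304), and Tnfrsf11b and Stmn2 were lower at -0.33 (adjusted p = 0.0359) and -0.57 (adjusted p = 0.0447). With air, Hey1 was higher at 0.46 (adjusted p = 0.0364). These 1 higher and 2 lower with H2S and 1 higher with air stand beside the same shares of all probe sets, 3.92% and 3.93% with H2S and 1.56% higher with air. HEY1 and HEY2 are repressors that Notch also induces, and TNFRSF11B is the decoy receptor osteoprotegerin. Between H2S and air, 0 of the 18 TGF-beta targets passed in limma (2 at an unadjusted p under 0.05, beside 1612 of all 28361 probe sets). In CyberT 2 passed, where 109 of all probe sets were higher and 34 lower. These 2 were Bhlhe40 at 0.96 (CyberT adjusted p = 0.000181, limma 0.119) and Timp1 at 0.65 (CyberT adjusted p = 0.0104, limma 0.212). Of the 11 BMP targets, 0 passed in limma, 0 were under 0.05 unadjusted and 0 passed in CyberT.

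**Figure D4:**
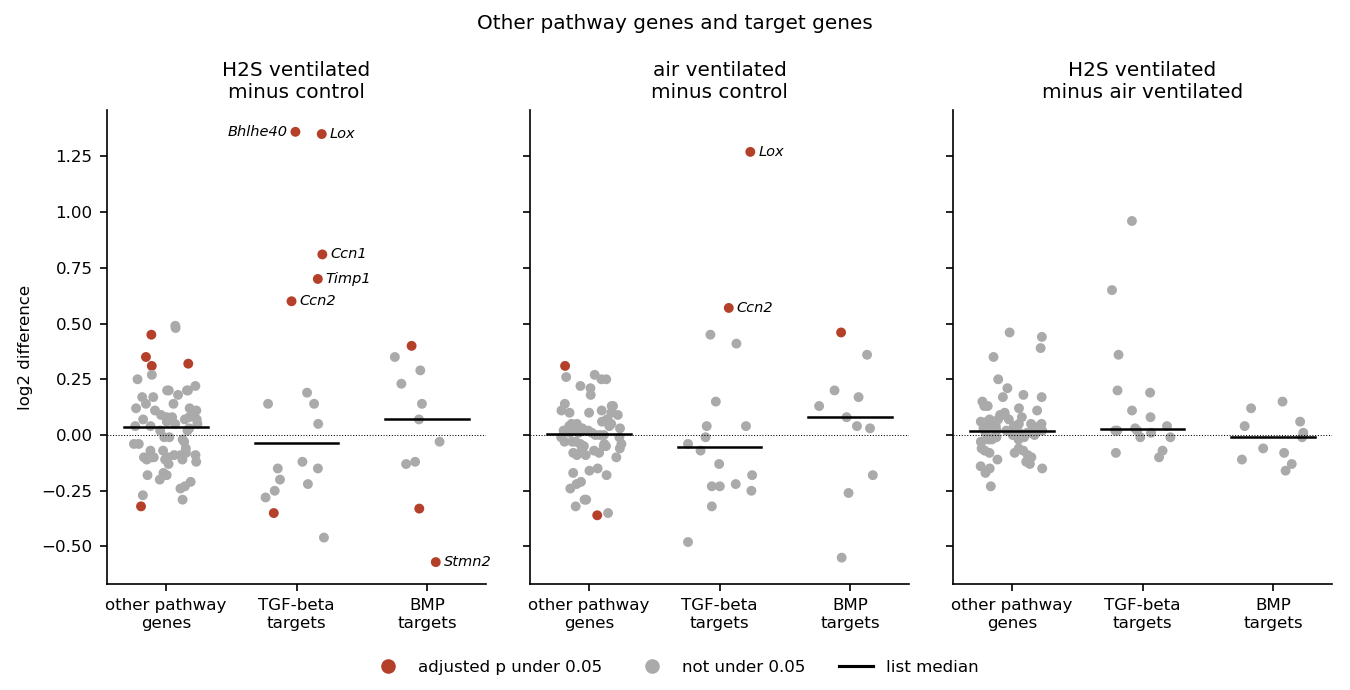
Log2 differences of 70 other pathway genes, 18 TGF-beta targets and 11 BMP targets, for H2S minus control, air minus control and H2S minus air. Each point is a gene, red where the adjusted p was under 0.05, and the black lines are list medians, which lie between -0.06 and 0.08. Lox stands out in both ventilated groups against control and Bhlhe40 with H2S.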

How the data were processed

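Whole-transcript Affymetrix arrays of 15 lungs were scanned under Command Console 3.0 and processed by the authors in Genedata Expressionist Refiner 6.1. They removed a background from anti-genomic probes matched on GC content, normalized by quantiles and summarised with RMA, and the deposited table holds intensities on a linear scale for 28361 probe sets. The plan had taken them to be log2 values, so they were transformed to log2 here. No detection calls or scan dates were used. Symbols came from GEO's platform annotation, in which 21780 probe sets had 1 symbol, 1617 several and 4964 none here. Python 3.11.15 and matplotlib 3.10.9 were used for motif searches and plots.

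The groups were compared by lmFit, contrasts.fit and eBayes of limma 3.58.1 (R 4.3.3) on all 15 arrays without covariate. CyberT (confidence 15, window 101), a variance trend, array weights, a filter on dim probe sets, 2 other normalizations, only the groups compared, the number sets, the mean over the probe sets of a gene, the fold from medians and leaving out each mouse were alternatives, and a block of neighbouring label numbers was added later. Both tests were checked on simulated data.

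All genes past an adjusted p of 0.05 in any comparison were given mouse by mouse, and from each further list up to 6 genes with the smallest p. The genes, lists and tests were chosen with earlier results of these data known. Promoters were taken from RefSeq for GRCm38.p6, with 36 of 48 genes matched.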

Additional observations from a re-analysis of the deposited data

Results flagged for a closer look

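Among the 24 groups of 5 mice (8 genes in 3 groups), 2 held a mouse whose gap to its nearest neighbour was over 0.71 of the range of the group. Chance gives about 1 such group in 20. The air-ventilated mouse 6 measured 111 for Gdf15, where the other 4 mice ventilated with air had a median of 149, and its gap was 0.807 of the range. The control mouse 21 measured 237 for Fst, where the other controls had a median of 213, with a gap of 0.729 of the range.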

How the results depend on the processing

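Of 13 gene differences past the threshold, followed over 364 alternative values, all 364 kept their direction, 281 kept the call and 83 lost it. Of 308 alternative values of 11 differences not past it, 2 gained a call, both in CyberT with air (Fst 0.0335, Bmp6 0.0173), and 7 changed sign. The sign changes were all in H2S minus air: Bmper at 0.02 with array weights and 0.02 in mice 1 to 12, Smad1 at -0.03 in mice 20 to 28, and, leaving out single mice, Bmper from -0.06 to 0.04 and Bmp4 from -0.01 to 0.07. The count of 3 genes with air was 8 in CyberT, 5 with a variance trend, 7 with array weights, 6 without dim probe sets, 5 with quantile normalization and 0 in mice 20 to 28. Leaving out single mice gave 1 to 5: 1 without the H2S-ventilated mouse 4 or 28, the air-ventilated mouse 2, 6 or 10 or the control mouse 5, 9 or 25, and 5 without the H2S-ventilated mouse 8. The count of 7 with H2S was 0 in mice 20 to 28 and 5 to 10 without single mice. In CyberT, 7 genes were higher and 1 lower with H2S, against 5 higher and 3 lower with air. At the study's thresholds the 1 gene with H2S became 0 in mice 20 to 28 and 0 to 2 without single mice, 0 without the H2S-ventilated mouse 28 and 2 without mouse 20. In mice 1 to 12 it was Bmp6 (-0.84) instead of Fst (0.74). The cause of these differences, the smaller number of mice included, was not tested. The groups share no whole replicate label, but the second numbers can be put into 5 sets of neighbours with 1 mouse per group. Across groups, 12 of 15 pairs of mice in a set had deviations correlated over 0.1 (-0.179 to 0.458, mean 0.211). Of pairs from different sets, 16 of 60 did (-0.499 to 0.49, mean -0.0525). The best correlation was with the own set in 8 of 15 mice. On average, mice of a set were therefore more alike than mice of different sets. No source used here states a pairing, and the main fit took none, so it ignores what the sets shared. A replicate block of these sets, added after the values were seen, gave 4 genes with air, 8 with H2S and 0 between them, and Gdf15 lost its calls with air (adjusted p = 0.05) and between H2S and air (0.0541). Without detection calls, dim genes cannot be told from background.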
